A study of Mus musculus with 12 samples.

Results

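Lin28a, Lin28b, Trim71, Sall4, Igf2bp1, Igf2bp2, Igf2bp3, Hmga1, Hmga2 and Arid3b form a set of growth genes linked by the let-7 family of microRNAs. The set was taken by gene symbol, from what these genes are known for, and with earlier results of these data known. All 10 were found once among the 53801 genes of the count tables. All 10 also passed the filter on low counts, among 18365 genes tested. RNA with a poly-A tail was sequenced from the maxillary prominence of wild type C57BL/6 mouse embryos, the facial swelling that forms the upper jaw and the palatal shelves. The 4 stages run from embryonic day 10.5 (E10.5) through E11.5 and E12.5 to E14.5. No group had a treatment or a transgene, and each stage has 3 libraries, 12 in all. RNA came from 7 pooled littermates, and the labels do not say whether that number is for 1 library or for a stage. The labels describe E14.5 in protocol texts of its own, with the same steps as for the other stages as far as those texts go. In comparisons with E14.5, any difference in the handling of its libraries cannot be told apart from stage. The question, from the title, is how expression changes as the tissue develops, and each stage was set against the one before it and E14.5 against E10.5.

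Lin28a and Lin28b are RNA-binding proteins that hold the precursors of let-7, so that the mature microRNA is not made. Lin28a recruits enzymes that add uridines to these precursors. Let-7 in turn pairs through its seed with the 3′ UTRs of growth-promoting mRNAs, among them those of both Lin28 genes, and represses them. In embryos the loop is known as a timer: Lin28 marks early, proliferating tissue, and mature let-7 accumulates as tissue differentiates. Trim71 is a ubiquitin ligase that binds and represses mRNAs, Sall4 a zinc finger factor of stem cells, and Arid3b a DNA-binding factor. The Igf2bp proteins bind mRNAs such as that of the growth factor Igf2 and steady them, and Hmga1 and Hmga2 are small proteins that bend AT-rich DNA in chromatin.

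The sequences below show the letters that link the set. The let-7 members and miR-98 share bases 2 to 8, in capitals, and miR-125, which is made together with let-7 from some transcripts, has a seed of its own. Mature microRNAs were not measured in these libraries. The sequences are from RefSeq, GRCm38.p6.
let-7a-5p: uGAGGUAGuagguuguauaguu
let-7g-5p: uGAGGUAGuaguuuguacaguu
miR-98-5p: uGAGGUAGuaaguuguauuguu
miR-125b-5p: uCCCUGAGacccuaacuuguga

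Lin28 proteins recognise GGAG in the loop of the precursor. Those 4 letters stand between the arms of 9 of the 12 let-7 and miR-98 hairpins. Mirlet7g (chr9:106178840-106178927, plus strand) has them, in capitals, and Mirlet7b (chr15:85707319-85707403, plus strand) does not.
Mirlet7g hairpin: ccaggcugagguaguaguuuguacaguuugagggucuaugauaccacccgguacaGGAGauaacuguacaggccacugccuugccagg
Mirlet7b hairpin: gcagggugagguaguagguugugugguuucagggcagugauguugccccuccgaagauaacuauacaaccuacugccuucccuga

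The complement of the let-7 seed, CTACCTC, was looked for on the sense strand of annotated 3′ UTRs (GENCODE M21, GRCm38), as was CTCAGGG for miR-125. These 2 motifs share no stretch that would let 1 count as the other. Each of the 10 genes holds at least 1 let-7 match, against 8.18% of 20825 UTRs, and the set was named for let-7, so that count is a description. Lin28b, Trim71, Igf2bp1 and Hmga2 hold 4 matches each and Lin28a 2, and the others hold 1. At least 3 matches were present in 0.144% of all UTRs. The share depends on length: among 2211 UTRs of 2382 to 3720 bases, near the 2977 of Hmga2's, 15.8% held a match. Over the 10 genes, such shares among UTRs of like length ran from 7.97% (Hmga1) to 34.0% (Igf2bp1). Matches to miR-125 were present in Lin28a, Lin28b, Trim71 and Igf2bp3 (1 each) and Arid3b (2), against 12.2% of UTRs. That share too depends on length: among UTRs of like length it ran from 12.7% (Hmga1) to 40.9% (Igf2bp1). The first match of 6 members is shown with its context, in capitals. An adenosine after the match, which helps let-7 bind, follows it in Lin28a, Trim71, Igf2bp1 and Hmga2 and not in Hmga1 and Arid3b.
Lin28a: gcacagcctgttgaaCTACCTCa
Trim71: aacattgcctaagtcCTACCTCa
Igf2bp1: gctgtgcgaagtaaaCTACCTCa
Hmga2: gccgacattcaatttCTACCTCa
Hmga1: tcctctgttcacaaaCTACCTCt
Arid3b: tatttcaataaagctCTACCTCt

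All 6 lie in a 3′ UTR. The windows are chr4:134005189-134005211 for Lin28a, chr9:114512472-114512494 for Trim71, chr11:95961778-95961800 for Igf2bp1 and chr10:120364224-120364246 for Hmga2, all on the minus strand. That of Arid3b, chr9:57790361-57790383 on the minus strand, ends 7 bases before the end of the UTR, and that of Hmga1 is chr17:27563277-27563299 on the plus strand. A match gives letters and not a bound site.

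Libraries held 28294837 to 33941430 counts in genes. Levels are CPM, the usual depth-scaled count of reads per gene, on library sizes scaled by TMM, and tests are edgeR's quasi-likelihood test with Benjamini-Hochberg adjustment over all genes tested and a threshold of 0.05. The tissue label was checked on 9 facial mesenchyme markers (Prrx1, Twist1, Pdgfra and others), all of which had counts at every stage and summed to 1208 to 2214 CPM per library. The share of alignments that fell outside annotated genes moved with stage, with E10.5 libraries between 1.92% and 4.88%, those of E11.5 between 2.16% and 2.42%, those of E12.5 between 5.03% and 5.43% and those of E14.5 between 5.78% and 6.21%. TMM corrects for a shift in the mass of the libraries: without it the log2 fold changes of all genes had a median of 0.28 from E11.5 to E12.5 and 0.38 over the course, against 0.06 and 0.06 with it. Of all genes called, 78.6% and 68.2% were then higher at the later stage, against 54.9% and 52.0% with TMM. Fewer cells of a type and less RNA per cell cannot be told apart in bulk tissue.

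**Figure D1:**
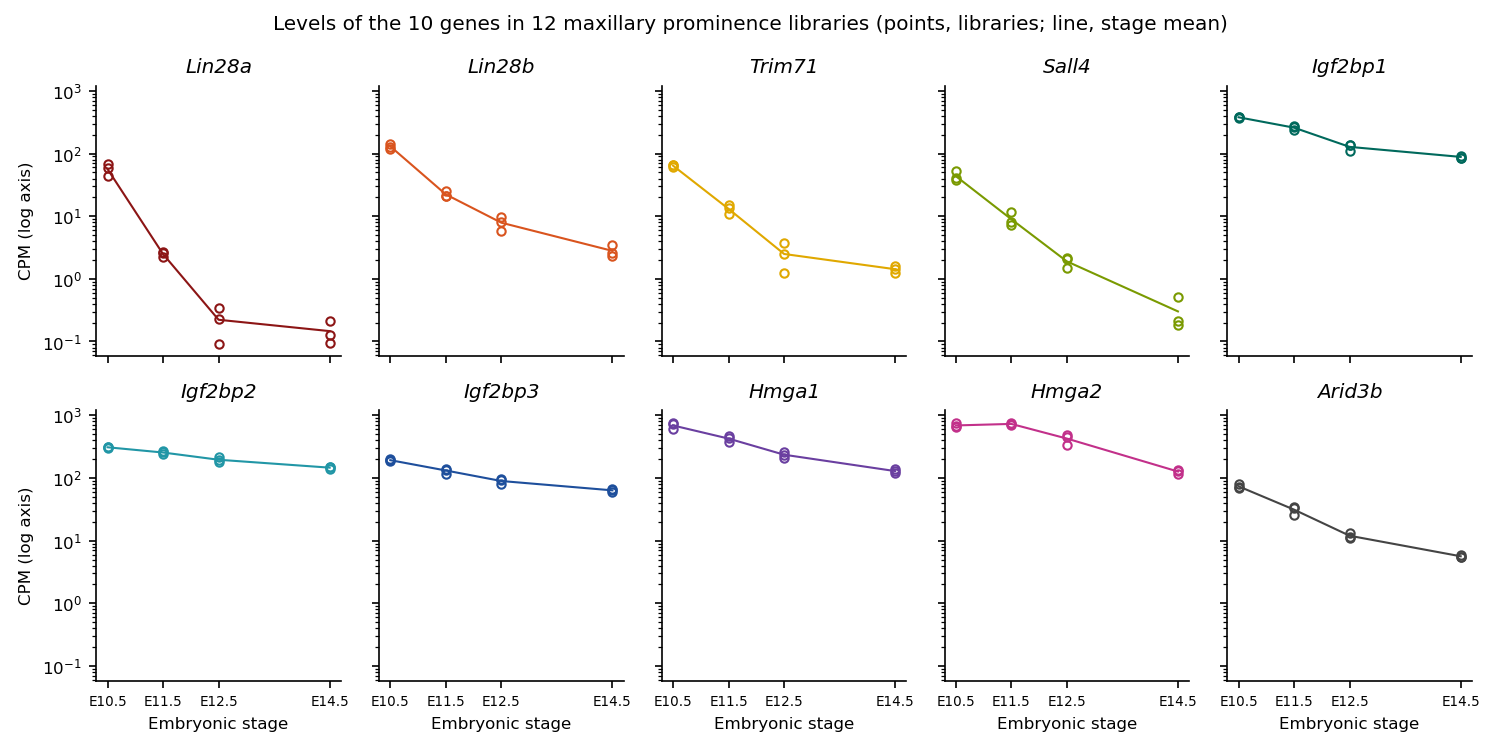
CPM of each gene in each library (points) on a shared log axis against embryonic stage, with the stage mean as a line. Hmga2 held its level at E11.5 (700.4 to 763.9 CPM), where the libraries of the other 9 genes lay below those of E10.5.

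At the first step, from E10.5 to E11.5, 9 of the 10 genes fell and none rose, where 12.9% of all tested genes were lower, 12.2% higher and 25.1% called in either direction. Hmga2 was the exception. The median log2 fold change was -0.97 over the 10 genes and -0.04 over all genes. The libraries of both stages did not overlap for those 9 genes, which held in this direction for 22.4% of all genes. From E11.5 to E12.5 all 10 fell (22.2% of all genes, with 27.1% higher and 49.3% called either way) with no overlap for any (26.6% of all genes), and the median was -1.20 against 0.06. From E12.5 to E14.5, a step of 2 days, 9 of 10 fell (24% of all genes, with 23% higher and 47.1% called either way), all but Lin28a, with a median of -0.84 against -0.01. Here 8 were free of overlap, against 27.3% of all genes, and the libraries of Lin28a and Trim71 overlapped. Over the course all 10 were lower at E14.5 (33.8% of all genes, with 36.6% higher and 70.4% called either way) and none overlapped (36.2%), with a median of -3.08 against 0.06. In all, 8 genes, those other than Lin28a and Hmga2, fell at each of the 3 steps, as did 1.38% of all genes.

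**Figure D2:**
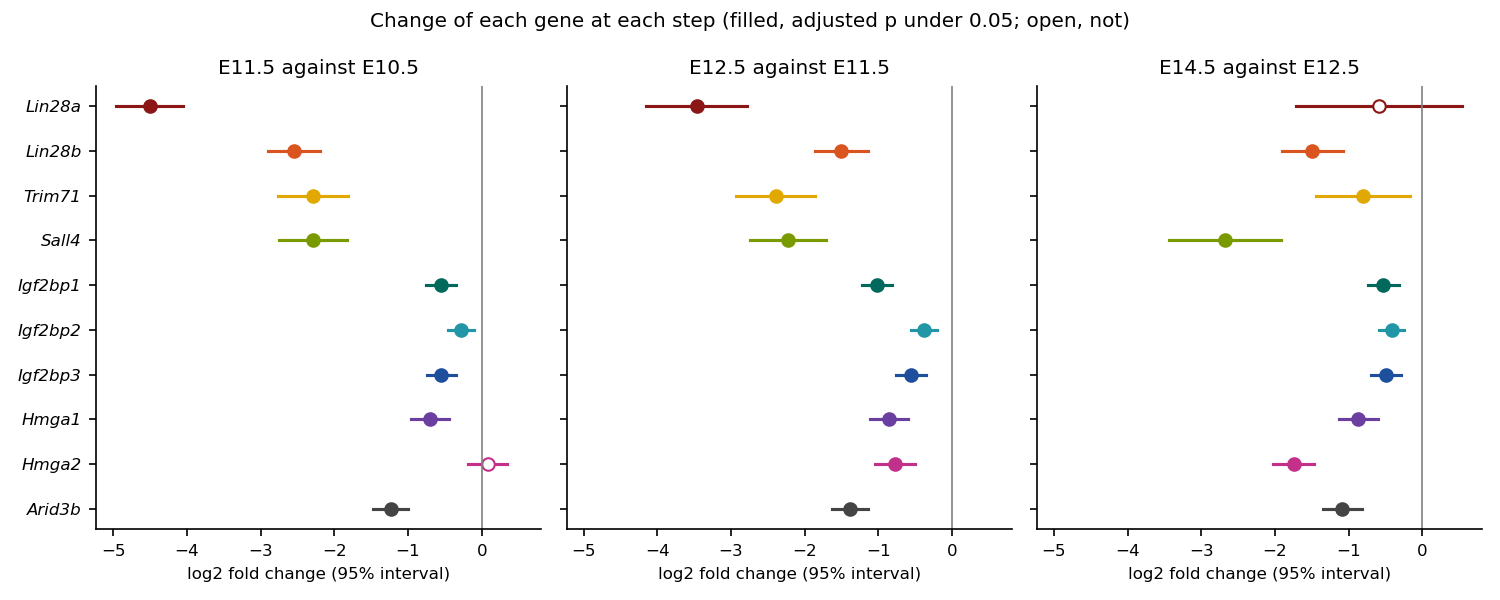
Log2 fold change of each gene with its 95% interval at each step (filled points, adjusted p under 0.05). The intervals of Hmga2 at the first step (-0.18 to 0.35) and of Lin28a at the last (-1.71 to 0.53) span 0.

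Lin28a fell the most of the set. It lies on chromosome 4 (134003330 to 134018841, minus strand; mm10, as for all coordinates below). At E10.5 its level was 43.6, 58.6 and 67.6 CPM in replicates 1, 2 and 3, and at E11.5 it was 2.60, 2.21 and 2.65 CPM. Every E11.5 library thus lay far below every E10.5 library, and the mean went from 56.6 ± 12.1 to 2.49 ± 0.242 CPM (SD, n = 3). The fitted fall was 22.7-fold (log2 fold change -4.51, SE 0.21, adjusted p = 5.83e-08). At E12.5 the 3 libraries held 11, 3 and 8 counts, and at E14.5 they held 7, 3 and 5. These libraries overlap, and the step between them did not pass (log2 fold change -0.59, 95% interval -1.71 to 0.53, adjusted p = 0.379). At this depth the counts are compatible with any change within that interval. From E11.5 to E12.5 Lin28a fell by a further 3.46 on the log2 scale (SE 0.32, adjusted p = 6.07e-06). On that scale, 52.7% of its fall over the course came in the first day, 40.5% in the second and 6.87% in the last 2. Its exons share 234 bases with Gm13061 on the other strand. The protocol names no step that marks strand, so reads there cannot be assigned.

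Lin28b, its paralog on chromosome 10 (45376620 to 45486395, minus strand), had the higher CPM of the pair at every stage. Per kilobase of exon, its libraries overlapped those of Lin28a at E10.5 (14.4 against 14.2 CPM per kb) and lay above them later. Lin28b measured 120.5, 142.0 and 129.4 CPM at E10.5 and 20.7, 20.7 and 25.5 CPM at E11.5. At E12.5 it measured 9.79, 5.77 and 8.07 CPM, and at E14.5 2.36, 3.46 and 2.58 CPM. No stage overlapped the next. The log2 fold changes of Lin28b were -2.55, -1.50 and -1.50 at the 3 steps (SE 0.16, 0.17 and 0.19; adjusted p = 2.89e-07, 2.67e-05 and 4.05e-05). The second step was smaller than the first by 1.05 (SE 0.28, adjusted p = 0.0176; 25.3% of all genes differed between these steps). That difference lost its call without E11.5 replicate 1 (0.94, adjusted p = 0.0857) or replicate 2 (0.94, adjusted p = 0.0833). At E14.5 Lin28b still held 77 to 108 counts per library.

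Trim71 on chromosome 9 (114507133 to 114564369, minus strand) measured 61.9, 65.6 and 65.1 CPM at E10.5 and 13.7, 10.7 and 14.9 CPM at E11.5. Its replicates at E10.5 were the closest of the Lin28-linked genes, with a mean of 64.2 ± 2.00 CPM (SD, n = 3). Its log2 fold changes were -2.29 and -2.39 at the first 2 steps (SE 0.22 and 0.25, adjusted p = 9.38e-06 and 1.56e-05). At E12.5 it measured 3.71, 1.25 and 2.53 CPM, and at E14.5 1.23, 1.63 and 1.42 CPM. The E14.5 libraries overlap those of E12.5. The last step passed (log2 fold change -0.81, SE 0.29, adjusted p = 0.0375), but not when E12.5 replicate 1 or 3 or E14.5 replicate 1 or 3 was left out (-0.44 to -0.79, adjusted p = 0.0807 to 0.209).

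Sall4 on chromosome 2 (168748332 to 168767943, minus strand) kept falling to the end. It measured 41.1, 38.3 and 51.8 CPM at E10.5 and 8.01, 7.25 and 11.6 CPM at E11.5. It then measured 2.06, 1.50 and 2.15 CPM at E12.5 and 0.214, 0.512 and 0.181 CPM at E14.5, the last from 7, 16 and 7 counts. No stage overlapped the next, and the fall was 2.29, 2.23 and 2.68 on the log2 scale (SE 0.21, 0.24 and 0.35; adjusted p = 7.01e-06, 1.85e-05 and 4.88e-05). Its fall over the course, 146.8-fold, was the largest of the set after Lin28a's 377.2-fold. Sall4 shares 526 exonic bases with Gm14261 on the other strand.

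Lin28a and Sall4 are also known from germ and stem cells. The 5 germ cell markers summed to 1.33 to 3.18 CPM per library over all stages, and Dppa3, one of them, had no count at E10.5 or E11.5. Markers of neurons moved with the first step: 8 of 8 had counts, and their sum was 343.3 to 707.1 CPM at E10.5 and 123.9 to 217.0 CPM at E11.5, with 6 of 8 genes lower. The 7 neural progenitor markers summed to 155.5 to 297.0 CPM at E10.5 and 134.8 to 142.3 CPM at E11.5, where Sox1 had no count. The part of those cells in the levels of the Lin28-linked genes was not tested. Within E10.5, replicate 2 had the highest sum of both lists, and in that library Lin28b (142.0 CPM) and Trim71 (65.6 CPM) were highest too and Lin28a (58.6 CPM) and Sall4 (38.3 CPM) were not.

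Igf2bp1 fell the most of its family. This gene of chromosome 11 (95957163 to 96005940, minus strand) measured 388.8, 379.3 and 372.2 CPM at E10.5 and 263.7, 235.2 and 279.0 CPM at E11.5. It measured 134.8, 109.7 and 139.5 CPM at E12.5 and 92.7, 86.6 and 86.3 CPM at E14.5. The stages form 4 separate bands. The log2 fold changes were -0.55, -1.02 and -0.53 (SE 0.10 at each step, adjusted p = 9.39e-04, 7.40e-06 and 5.81e-04). On that scale, 48.4% of the fall over the course came from E11.5 to E12.5. The second step exceeded the first by 0.47 on the log2 scale (SE 0.16), which did not pass (adjusted p = 0.0520).

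Igf2bp2 on chromosome 16 (22059009 to 22163299, minus strand) changed least of the 10 genes. It measured 316.0, 297.3 and 316.1 CPM at E10.5, 257.1, 243.8 and 265.2 at E11.5, 192.6, 179.2 and 215.7 at E12.5 and 149.8, 147.9 and 141.6 at E14.5. Again no stage overlapped the next, and the course amounted to a fall by 1.08 on the log2 scale, or 2.12-fold (SE 0.08, adjusted p = 7.60e-08). The first step was small (log2 fold change -0.28, SE 0.08, adjusted p = 0.0210). Its call was lost without E10.5 replicate 1 (adjusted p = 0.0704) or 3 (0.0524), without E11.5 replicate 1 (0.0651) or 2 (0.0952), and without E14.5 replicate 1 (0.0602) or 3 (0.0596).

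Igf2bp3 on chromosome 6 (49085223 to 49214957, minus strand) stood between its relatives in size of change. It measured 191.0, 187.6 and 199.9 CPM at E10.5, 136.6, 117.8 and 141.4 at E11.5, 93.1, 78.9 and 96.8 at E12.5 and 66.4, 64.4 and 59.8 at E14.5. The stages did not overlap, and the steps were alike, at -0.55, -0.56 and -0.50 on the log2 scale (SE 0.09 each; adjusted p = 7.35e-04, 3.78e-04 and 7.22e-04). Igf2bp3 shares 1529 of its 8159 exonic bases with Malsu1 on the other strand, and its counts are uncertain by that overlap.

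Hmga1 on chromosome 17 (27556497 to 27563674, plus strand) measured 728.9, 748.1 and 595.5 CPM at E10.5 and 432.9, 379.7 and 465.8 CPM at E11.5. It measured 232.4, 264.4 and 210.1 CPM at E12.5 and 118.2, 141.0 and 127.9 CPM at E14.5. It fell by 0.70, 0.85 and 0.87 on the log2 scale, the last over 2 days (SE 0.12 each; adjusted p = 8.89e-04, 1.26e-04 and 7.85e-05), with no overlap between stages. Within E10.5, replicate 3 was lowest for Hmga1, Hmga2 and Igf2bp1 and highest for Lin28a, Sall4, Arid3b, Igf2bp2 and Igf2bp3.

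Hmga2 on chromosome 10 (120361275 to 120476469, minus strand) followed another course. It measured 761.3, 665.8 and 646.3 CPM at E10.5 and 728.9, 763.9 and 700.4 CPM at E11.5, and these ranges overlap. The first step gave a log2 fold change of 0.08 (95% interval -0.18 to 0.35, adjusted p = 0.675), which does not reach the -0.70 of Hmga1. At E12.5 the level was 489.4, 339.8 and 450.9 CPM, and at E14.5 it was 132.9, 130.9 and 117.2 CPM. Hmga2 fell by 0.78 at the second step (SE 0.12, adjusted p = 3.04e-04) and by 1.75 at the last (SE 0.13, adjusted p = 3.86e-07). On the log2 scale, 71.5% of its net fall came in the last 2 days. The second step differed from the first by -0.86 (SE 0.21, adjusted p = 0.0111), a call that was lost without E11.5 replicate 2 (-0.80, adjusted p = 0.0535). From first to last stage, Hmga1 and Hmga2 fell by nearly the same amount, 2.42 and 2.44 on the log2 scale (SE 0.13 each).

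Arid3b on chromosome 9 (57790353 to 57836793, minus strand) measured 71.2, 69.5 and 80.5 CPM at E10.5 and 33.3, 26.1 and 34.5 CPM at E11.5. It measured 13.2, 11.1 and 11.6 CPM at E12.5 and 5.48, 5.41 and 6.01 CPM at E14.5. With 4 separate bands again, it fell by 1.24, 1.38 and 1.09 on the log2 scale (SE 0.11, 0.11 and 0.12; adjusted p = 4.94e-06, 2.65e-06 and 1.42e-05). Its fall of 13.1-fold over the course lay between those of the Lin28-linked genes, 45.0-fold to 377.2-fold, and those of the Igf2bp and Hmga genes, 2.12-fold to 5.44-fold. Arid3b shares 360 exonic bases with the antisense gene Gm17231.

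**Figure D3:**
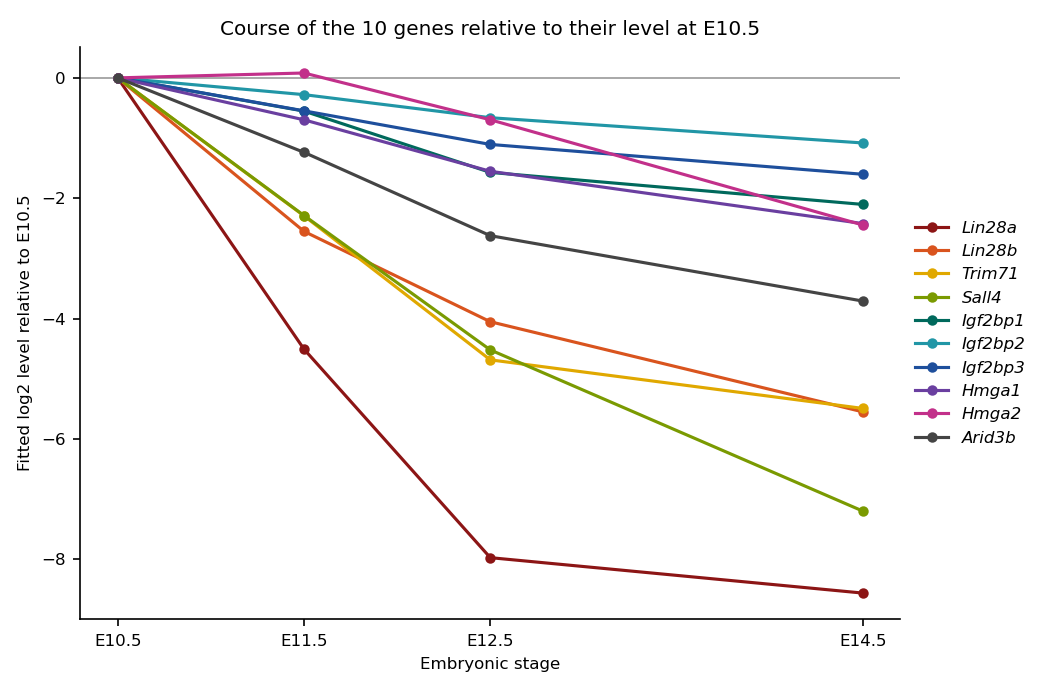
Fitted log2 level of each gene relative to E10.5, as the sum of its step changes, against stage. Lin28a ends lowest (-8.56) and Igf2bp2 highest (-1.08), and Hmga2 starts flat and ends beside Hmga1.

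Whether a gene fell faster early or late was asked by setting the last step against the first, a contrast added after the data were seen. The last step covers 2 days and the first 1, so equal steps mean a slower daily fall. Of the 10 genes, 3 were on the higher side and 1 on the lower, where 18% and 18.6% of all genes were, 36.6% in all. Lin28a, Lin28b and Trim71 fell less at the last step, by 3.92 (SE 0.64, adjusted p = 5.07e-04), 1.05 (SE 0.25, adjusted p = 0.00537) and 1.49 (SE 0.37, adjusted p = 0.00708) on the log2 scale. Hmga2 fell more, with a difference of -1.83 (SE 0.18, adjusted p = 8.25e-06). For the second step against the first, Lin28a gave 1.04 (SE 0.51, 95% interval -0.05 to 2.13), which did not pass (adjusted p = 0.143).

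Alignments outside genes took a larger share from E12.5 on, and no pair of E11.5 and E12.5 libraries has a like share. With that share as a covariate 6 of the 10 genes were lower at E12.5 and none higher, where 1.56% of all genes were lower. Igf2bp2, Igf2bp3, Hmga1 and Hmga2 lost their calls, with log2 fold changes of -0.45, -0.63, -0.52 and -0.62 (adjusted p = 0.114, 0.0619, 0.162 and 0.149). E10.5 replicate 3, with 4.88% outside genes, lies near the E12.5 libraries in this measure. It stood above every E12.5 library for all 10 genes, by 1.51 times the E12.5 mean for Hmga2 to 304.2 times for Lin28a. It is 1 library of another stage, and the share and the stage cannot be told apart for the step from E11.5 to E12.5.

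At E11.5 and E12.5, 1 library lay lowest for most of the set, which was not so at the other stages, where no library was highest or lowest for more than 5 genes. E11.5 replicate 3 was the highest of its stage for 9 of 10 genes and replicate 2 the lowest for 8. E12.5 replicate 2 was the lowest for 9 of 10 genes, all but Hmga1. That library had the largest summed level of 8 neuronal markers (305.7 CPM, against 81.2 and 181.4) and of 8 surface epithelial markers (1084 CPM, against 604.0 and 808.3), and the part of those cells in its lower levels was not tested. Across the 12 libraries, Pearson's r of log2 CPM between pairs of the 10 genes ran from 0.717 to 0.992 with a median of 0.970 over 45 pairs, as a description of libraries that share stage. The lowest value was for Lin28a with Hmga2.

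Ratios of paralogs within a library do not depend on how libraries are scaled. They take no account of exon length, so they show change over stages and not which paralog is more abundant. All 5 pairs within the 3 families varied with stage, by an exact permutation test over 369600 assignments of the 12 libraries with adjustment over the 5 pairs. The log2 ratio of Lin28a to Lin28b counts was -1.23 ± 0.27 at E10.5, -3.15 ± 0.15 at E11.5 and -5.19 ± 0.51 at E12.5 (SD, n = 3; adjusted permutation p = 4.33e-04). Lin28a thus fell relative to Lin28b, and the value at E14.5, -4.17 ± 0.79, rests on 15 Lin28a counts.

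Hmga2 and Hmga1 had equal counts at E10.5 (log2 ratio 0.00 ± 0.15) and again at E14.5 (-0.02 ± 0.17). Between these ends Hmga2 led in counts, by 0.78 ± 0.21 at E11.5 and 0.85 ± 0.42 at E12.5 (SD, n = 3; adjusted permutation p = 0.0100). In E12.5 replicate 2 the lead was 0.36, the lowest of that stage. In counts, Igf2bp1 went from a lead over Igf2bp2 of 0.30 ± 0.06 at E10.5 to a deficit of -0.73 ± 0.04 at E14.5 (adjusted permutation p = 4.33e-04). Its lead over Igf2bp3 narrowed from 0.98 ± 0.07 to 0.48 ± 0.05 (adjusted permutation p = 0.00657), with the E11.5 value at 0.98 ± 0.02. Igf2bp2 gained on Igf2bp3, from 0.68 ± 0.04 to 1.20 ± 0.04 (adjusted permutation p = 4.33e-04). Per kilobase of exon, Hmga1 lay above Hmga2 and Igf2bp2 above Igf2bp1 at every stage.

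**Figure D4:**
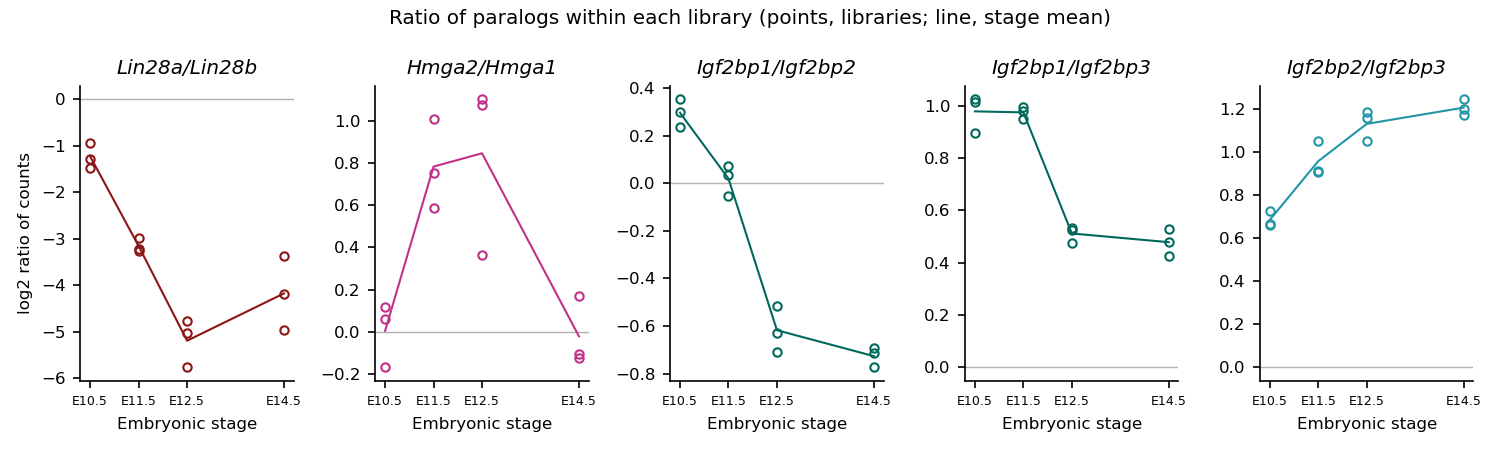
Log2 ratio of the counts of paralogs in each library (points) with the stage mean (line), by stage. Hmga2 over Hmga1 rises to 0.85 at E12.5 and returns to -0.02, while the counts of Igf2bp1 fall below those of Igf2bp2 from E12.5 on. Exon length is not accounted for.

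Per kilobase of exon, Hmga1 was the highest of the set at every stage, at 325.1 CPM per kb at E10.5 and 60.7 at E14.5. Hmga2 followed at E10.5 with 102.1 CPM per kb, then Igf2bp2 (41.9), Igf2bp1 (39.3) and Igf2bp3 (23.6). Lin28b (14.4) and Lin28a (14.2) overlapped at E10.5, as did Arid3b (9.25) with Sall4 (7.89) and Sall4 with Trim71 (6.88). At E14.5 Igf2bp2 (19.8 CPM per kb) and Hmga2 (18.8) overlapped in the places after Hmga1. Lin28a (0.0366) and Sall4 (0.0546) had dropped to the bottom and overlapped too. Arid3b (0.706 CPM per kb) lay above Lin28b (0.309) at E14.5, the reverse of their order at E10.5, and Trim71 (0.153) had moved from the tenth place to the eighth. Lin28a moved from the seventh place at E10.5 to the tenth at E11.5.

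Among partners of the Lin28 and let-7 system, the uridylyl transferases Tut4 and Tut7, which Lin28a recruits, and the nuclease Dis3l2, which degrades the tailed precursors, did not pass at the first step. Dis3l2 fell by 0.34 and 0.29 on the log2 scale at the later steps, and Tut4 fell by 0.48 at the last. Transcripts that span let-7 hairpins were matched by position, and 8 of 9 were tested. At the first step 0 were higher and 1 lower (12.2% and 12.9% of all genes). At the second step 6 were higher and 2 lower (27.1% and 22.2% of all genes). Mir99ahg was among those higher (9.46 ± 0.717 to 19.9 ± 1.50 CPM, log2 fold change 1.07). So was Lncppara, which had 0 counts at E11.5 and 14 at E12.5. At the last step 1 was higher and 3 lower (23% and 24% of all genes). Mir99ahg was among those lower, at 9.50 ± 1.19 CPM (log2 fold change -1.06). Over the course 3 were higher and 0 lower (36.6% and 33.8% of all genes), and 5 were not called. For 3110039I08Rik, which spans let-7a-2, levels of 12.7, 5.99 and 22.1 CPM within E10.5 ranked as the share of alignments outside genes did. The same held for Spaca6 (26.1, 12.9 and 49.8 CPM), which spans let-7e and was the 1 transcript lower at the first step. Lncppara, 3110039I08Rik and Spaca6 were chosen after their values were seen. For the transcripts that span hairpins, no result with that share as a covariate is given.

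Of 24 other mRNAs listed as let-7 targets, 15, 13 and 14 were lower at the 3 steps and 0, 2 and 3 higher, with medians of -0.32, -0.38 and -0.27. Of all genes, 12.9%, 22.2% and 24% were lower at these steps and 12.2%, 27.1% and 23% higher, with medians of -0.04, 0.06 and -0.01. Over the course 19 were lower and 3 higher (33.8% and 36.6% of all genes), with a median of -0.94 against -3.08 for the 10 genes. The log2 fold changes over the course were -7.18 for Igdcc3, a receptor-like surface protein, -4.06 for Fignl2, -3.01 for Mycn, a growth-promoting transcription factor, and -2.57 for Onecut2. Mycn went from 135.6 ± 3.65 CPM at E10.5 to 76.5 ± 7.01, 34.3 ± 3.45 and 16.9 ± 1.45 CPM (SD, n = 3), a fall at each step. The 3 that rose were Acvr1c, Plag1 and Cdk6, by 1.25, 0.74 and 0.35 on the log2 scale. Plag1 and Cdk6 were named after their values were seen.

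Genes with at least 3 let-7 matches in the 3′ UTR were few, 26 among tested genes, of which Lin28b, Trim71, Igf2bp1 and Hmga2 are 4. Of the other 22, 8 were lower at the first step (36.4%), 10 at the second (45.5%) and 3 at the last (13.6%), with 9.09%, 22.7% and 22.7% higher. Genes with no match were lower at these steps in 14.1%, 25.0% and 26.3% of cases and higher in 13.6%, 26.8% and 25.2%. Over the course 11 of the 22 were lower (50.0%, with 31.8% higher). Genes with no match were lower over the course in 37.4% of 13686 cases and those with 1 match, members left out, in 37.1% of 1244. The 4 members thus fell within a class in which falls and rises were both seen: Trim6 fell by 3.79 and Nr6a1, with 8 matches, by 2.12, while Zfp512b rose by 1.44. These 3 were chosen after their values were seen. The part of UTR length in these shares was not tested.

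**Figure D5:**
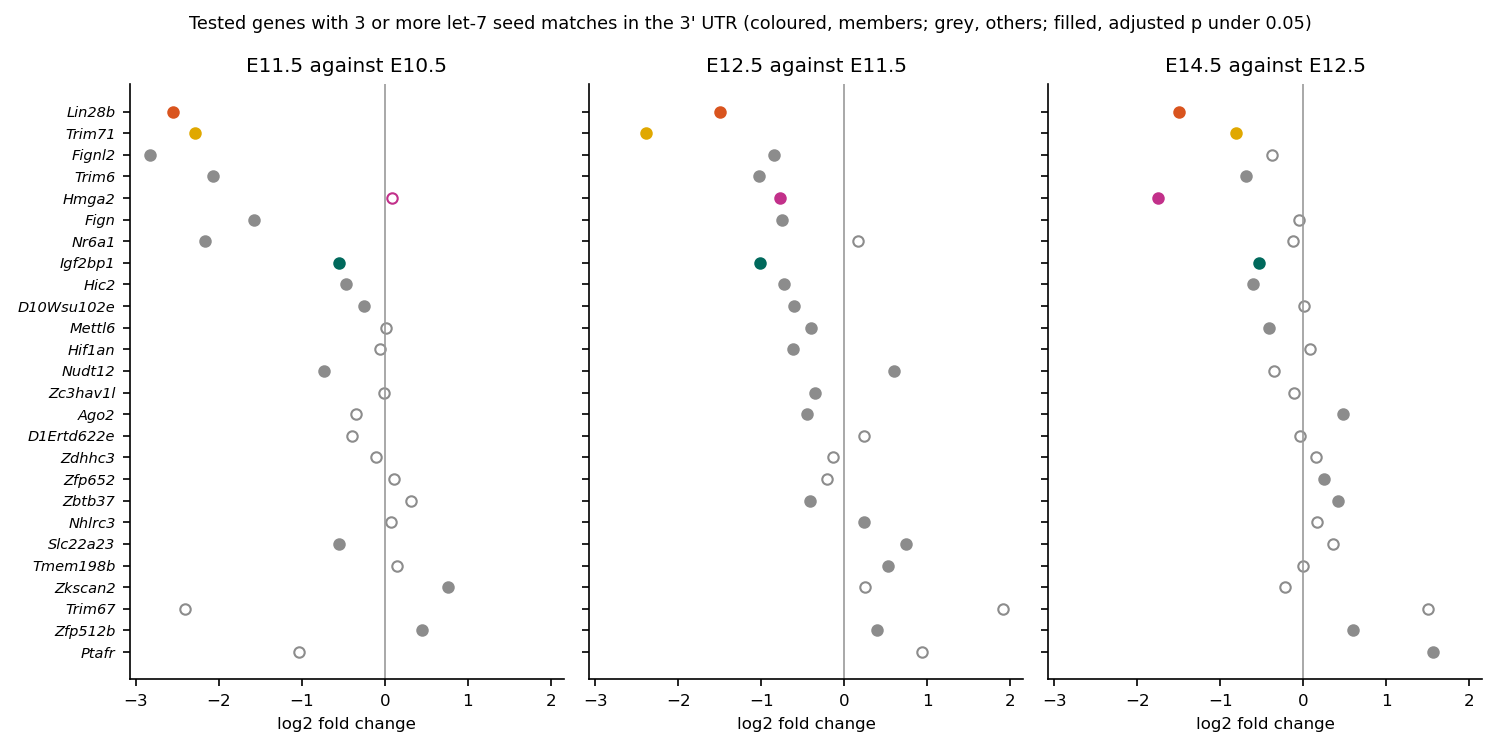
Log2 fold change at each step of the 26 tested genes with 3 or more let-7 matches (coloured, the 4 members; grey, others; filled, adjusted p under 0.05), ordered by their change over the course. Lin28b and Trim71 lead the order, and Ptafr and Zfp512b lie at the other end.

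Lists downstream of the set moved both ways. Of 11 RNAs bound by Igf2bp proteins, 6 were higher at E14.5 than at E10.5 and 3 lower (36.6% and 33.8% of all genes), with a median of 0.53 against 0.06. Igf2, the growth factor of the family's name, rose from 41.0 ± 12.9 to 233.6 ± 5.81 CPM (log2 fold change 2.51), the laminin chain Lamb2 by 1.80 and Cd44 by 3.98 on the log2 scale, while Hk2 fell by 1.11. Within E10.5, the replicates of Igf2, Lamb2 and Cd44 ranked as the share of alignments outside genes did, and those of Hk2 did not. Of 6 mRNAs that Trim71 is known to repress, 4 were higher and 2 lower over the course, the same comparison with the same shares of all genes. Egr1 rose by 3.23, the retinoblastoma relative Rbl2 by 2.01 and the cell cycle inhibitor Cdkn1a by 1.51, and E2f7 fell by 0.83. Of 3 tested cell cycle inhibitors linked to Hmga2, Cdkn2b rose by 2.02 and Cdkn1c by 1.37, and Cdkn1b fell by 0.18. Of all genes, 36.6% were higher and 33.8% lower. Cdkn2b means were 0.306, 1.38, 1.06 and 1.25 CPM at the 4 stages, with 26 counts in all at E10.5. Those of Cdkn1c were 113.6, 155.7, 247.6 and 293.9 CPM. Whether these genes follow the members was not tested. The E14.5 and E10.5 libraries are the same for these lists and for the 10 genes, so the lists are no separate evidence.

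Of 16 relatives of the members, 15 were tested, and 11 fell over the course and 1 rose (33.8% and 36.6% of all genes), with a median of -0.74 against 0.06. Arid3a fell by 1.16 at the first step, near Arid3b's 1.24, and by 1.93 over the course. Sall1 (log2 fold change -2.79) and Hmgb3, a chromatin protein of another HMG family (-2.18), fell too. The 1 that rose was Trim3, by 0.95, named after its value was seen. Of 14 genes of the pluripotency network 8 were tested, and 4 rose and 3 fell (median 0.18), against the same 36.6% and 33.8% of all genes. Klf4, which also acts in epithelia, rose by 4.59, and Dnmt3b, a DNA methyltransferase of early embryos, fell by 1.99. Pou5f1, the defining factor of the network, was under the filter, with 2 counts over all libraries.

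For each gene, those most like it were taken by Pearson's r of log2 CPM over the 12 libraries, among 12350 genes, which share stage and depth. Lin28a was most like Gemin5 (0.989), Lin28b like Nap1l1 (0.995), Trim71 like Ppp2r1b (0.997) and Sall4 like Sinhcaf (0.993). Igf2bp1 was most like Xpo7 (0.996), Igf2bp2 like Ccnj (0.995), Igf2bp3 like Mapk6 (0.998) and Hmga1 like Dut (0.998). Arid3b was most like Ddx27 (0.995), and Mycn was among the 3 most like both Arid3b (0.994) and Sall4 (0.992). A high r does not mean an equal change: Gemin5 went from 117.4 to 62.3 CPM where Lin28a fell 377.2-fold. Hmga2 was most like Nelfcd (0.993) and next Hbb-bh1 (0.992), an embryonic globin at 1218, 1142, 122.7 and 1.79 CPM at the 4 stages, which likewise did not drop at E11.5.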

How the data were processed

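The authors deposited 1 table of raw, whole-number counts by Ensembl gene identifier for each library. The tools named are FastQC, STAR (2.7.3a) and HTSeq (0.12.4), with mm10 as the build, per the submitters' processing notes, which give no role or order. Which annotation release, strandedness option or filter was used is not given in the sources used here. RNA was selected by poly-T beads, and no strand-marking step is named, per the labels' protocols. The 5 closing entries of alignments given to no gene, 14.3% to 18.6% of the listed alignments, entered neither library sizes nor tests. Symbols, coordinates and 3′ UTRs came from GENCODE M21 (GRCm38, the assembly also called mm10), which matched 53706 of 53801 identifiers, and microRNA sequences from RefSeq (GRCm38.p6). The UTR searched was the longest among a gene's principal transcripts.

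The counts were fitted with edgeR 4.0.16 in R 4.3.3, using filterByExpr with a minimum count of 10, TMM scaling and quasi-likelihood fitting of the 4 stage means over all 12 libraries (8 residual degrees of freedom, biological coefficient of variation 0.142). The fit was tested on simulated data. Paralog ratios add 0.5 to each count. Alternatives were the size factors of DESeq2, other filters, DESeq2 1.42.0, limma-voom (limma 3.58.1), the compared stages alone, replicate number as a block, a covariate for the percentage of alignments outside genes, globin and mitochondrial genes left out, and each library left out in turn. Library totals without scaling, and the contrast of the last step with the first, were added after the data were seen. Replicates are independent RNA samples by the labels, which name no separate litters. P-values therefore measure only the spread between these samples, which may be technical. No pair agreed within sampling noise (chi-square per degree of freedom at least 4.38 within a stage). Reads have no molecular identifiers, so low counts carry at least their counting error. The title of E14.5 replicate 1 names 2 parts, used as 1 library.

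All 10 members are named. From each list up to 4 called genes with the largest change in a comparison could be named, and for each member the 3 most like it with at least 5 CPM in their highest stage. The members and lists were chosen with earlier results of these data known.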

Additional observations from a re-analysis of the deposited data

Results flagged for a closer look

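Some genes of the set changed by unequal amounts at different steps, by a test of the difference between steps in the fit over all 12 libraries. For the second step against the first, Lin28b gave 1.05 (its fall was smaller from E11.5 to E12.5) and Hmga2 -0.86 (its fall began there). For the last step, of 2 days, against the first, Lin28a gave 3.92, Lin28b 1.05 and Trim71 1.49, all on the side of a smaller late fall. Hmga2 gave -1.83 in that contrast, on the side of a larger one. Such differences were called for 25.3% of all genes in the first contrast and 36.6% in the second, so a call alone does not set these genes apart.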

How the results depend on the processing

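Leaving out 1 library gave 8 to 9 of the 10 genes lower at the first step, 10 at the second, 8 to 9 at the last and 10 over the course, with none higher. The counts of genes lower and higher in the second step against the first ranged from 1 to 2 and from 0 to 1, against 1 and 1, and those in the last step against the first kept 1 and 3. With a covariate for the percentage of alignments outside genes, 6 genes were lower from E11.5 to E12.5, and 0 were lower and 0 higher in the second step against the first. In that contrast 2 genes were lower with the size factors of DESeq2, without a filter on low counts, with DESeq2's test and with replicate number as a block. Igf2bp1 was the gene added (adjusted p = 0.0491, 0.0436, 0.0259 and 0.0358). Replicate numbers do not pair the samples: deviations of same-numbered libraries correlated at -0.114 to 0.140 over 18 pairs, with 3 above 0.1, and the block changed no other call of the 10 genes.

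Over single genes, alternatives kept direction in every case, with 1018 values on the same side of the threshold, 26 no longer past it and 7 newly past it. Those lost were the calls of Igf2bp2, Igf2bp3, Hmga1 and Hmga2 at the second step under the covariate, Igf2bp2 at the first step (8 of 22 alternatives) and, without scaling, at the second (-0.16, adjusted p = 0.190), Trim71 at the last step (8 of 22), and, in the second step against the first, Lin28b and Hmga2 under the covariate, Lin28b without E11.5 replicate 1 or 2 and Hmga2 without E11.5 replicate 2. The 5 paralog ratios passed in every alternative run. The last step against the first was not run on the compared stages alone. Lin28a from E12.5 to E14.5 fell under the filter in that alternative. Depth limits Lin28a, with 22 and 15 counts at E12.5 and E14.5, and Sall4, with 30 at E14.5. Counts over all genes moved by more than 1.5 times in some alternatives: at the second step, 286 lower and 407 higher under the covariate and 1875 and 6905 without scaling, against 4079 and 4968. In the second step against the first they were 311 and 281 under the covariate and 1156 and 3234 without scaling, against 2026 and 2615. Over the course they were 3908 and 3576 under the covariate, against 6211 and 6721, and 4114 lower without scaling. Leaving out an E11.5 library gave 1119 to 1223 lower and 1365 to 1488 higher in the second step against the first, and replicates 1 and 2 of that stage also reduced those lower at the first step to 1551 and 1486, against 2377. Of the calls in the second step against the first, 73.7% were higher without scaling and 46.3% without E12.5 replicate 3, against 56.3%.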
